A study of Mus musculus with 80 samples.

Results

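Mitochondrial fatty acid and branched-chain amino acid (BCAA) catabolism was followed as a set of 40 genes, among 32764 counted genes, that encode enzymes of mitochondrial β-oxidation (18 genes) and of leucine, isoleucine and valine breakdown with their regulators (22 genes). The members were taken from a list of enzyme names, all 40 were found in the deposited files by symbol, and the sets are described separately. The expression of these genes was measured by RNA sequencing of inguinal white adipose tissue (iWAT), brown adipose tissue (BAT), liver and muscle of male mice on a C57BL/6J background. WT mice, mice without FGF21 (FGF21 KO), mice without UCP1 (UCP1 KO) and mice without both (dKO, spelled UCP1/FGF12 double KO in the labels while the title of the series names FGF21) gave 5 libraries each per tissue, 80 in all. All groups, WT included, were bred and raised at 30 °C, moved to room temperature at 10 to 12 weeks of age and fed a high-fat diet for 3 weeks. Both alleles are knockouts of the whole animal, and each library is whole tissue, so a change in the cells present and a change in RNA per cell cannot be told apart. The labels do not link the tissues of 1 mouse. Nothing in the labels says that the 5 libraries of a group came from separate litters or days, so p-values measure the spread between these libraries.

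In β-oxidation, acyl-CoA dehydrogenases (Acadvl, Acadl, Acadm and Acads, from very long to short chains) introduce a double bond, and hydration, a further oxidation and thiolysis follow. The membrane-bound trifunctional protein (Hadha and Hadhb) carries out these later steps for long chains and Echs1, Hadh and Acaa2 do so for shorter ones, while Etfa, Etfb and Etfdh pass the electrons to the respiratory chain. BCAA breakdown starts with transamination (Bcat1 in the cytosol, Bcat2 in mitochondria) and the branched-chain ketoacid dehydrogenase complex (Bckdha, Bckdhb, Dbt and Dld), which the kinase Bckdk inactivates and the phosphatase Ppm1k activates. Separate branches then lead from leucine to acetyl-CoA and acetoacetate (Ivd, Mccc1, Mccc2 and Auh) and from valine and isoleucine through Acad8, Acadsb, Hibch, Hibadh, Hsd17b10 and Aldh6a1 to propionyl-CoA, which Pcca, Pccb, Mcee and Mut convert to succinyl-CoA. Brown fat is known for burning fatty acids for heat through UCP1, and it also takes up and oxidises BCAA.

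Read counts per library summed to between 28691377 and 50380696. Values per library are CPM, the counts scaled by edgeR to library sizes with TMM factors. CPM summed over a list of genes and the marker scores below use total counts, without TMM factors. Changes are log2 fold changes from edgeR's quasi-likelihood F test, fitted over all 20 libraries of a tissue, and a gene is called at a Benjamini-Hochberg adjusted p under 0.01 over all genes tested (17380 genes for iWAT, 15729 for BAT, 14407 for liver, 15114 for muscle). All 40 members passed the low-count filter in iWAT, BAT and muscle, and 39 in liver, where Bcat1 had at most 1 count in any library. Fgf21 had at most 3 counts in every FGF21 KO and dKO library of iWAT and BAT. Ucp1 was still counted in UCP1 KO libraries (24291 to 60779 counts in BAT against 98548 to 216085 in WT) and was higher in UCP1 KO than in WT in iWAT (3942 to 20264 against 109 to 776), and a count over a whole gene cannot check a partial deletion. Of the 20 iWAT libraries, 9 stood apart by a lymph node marker score (mean log2 of CPM plus 0.1 over 8 genes) of 6.37 to 7.52 against -0.10 to 1.91 in the others. They were WT replicates 4 and 5, UCP1 KO replicate 2, dKO replicates 1 and 3, and FGF21 KO replicates 1, 3, 4 and 5. A skeletal muscle score over 10 genes reached above 6 in 2 WT, 1 UCP1 KO, 1 dKO and 1 FGF21 KO library of iWAT, and in 2 UCP1 KO and 3 dKO libraries of BAT but in no BAT library of WT or FGF21 KO.

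In WT mice, BAT had the highest level of all 18 β-oxidation members and of 18 of the 22 BCAA members, in CPM per kilobase of exon (with TMM scaling Acad11 and Eci2 were lower in BAT than in liver). The exceptions were Bcat1 and Bcat2, which were highest in iWAT, Ppm1k, highest in liver, and Bckdk, highest in muscle. This scale, relative to the counts on genes with a known length (mean ± SD, n = 5), allows genes to be compared with each other. On this scale, Acadl led the β-oxidation members in BAT at 6889 ± 188, against 738 ± 87.8 in iWAT, 688 ± 141 in muscle and 303 ± 15.2 in liver. Acaa2, the thiolase, followed in BAT at 6553 ± 161 and led in liver at 1626 ± 93.7. In BAT, the levels of Acadl and Acaa2 overlapped between libraries, while Acaa2 lay above Acadvl (5304 ± 151) in every library. Among BCAA members in BAT, Bckdha (1368 ± 72.1) and Dld (1329 ± 51.6) overlapped, and Dld lay above Pccb (934 ± 30.6) in every library. In iWAT Aldh6a1 led the BCAA members at 395 ± 65.7, overlapping with Bckdha at 340.3 ± 49.2. The order of the highest members depends on the length used. With coding length, Hadhb led the β-oxidation members in BAT and muscle and Echs1 in iWAT, and with the longest transcript Etfa led in iWAT, while Dld led the BCAA members in BAT with either.

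**Figure D1:**
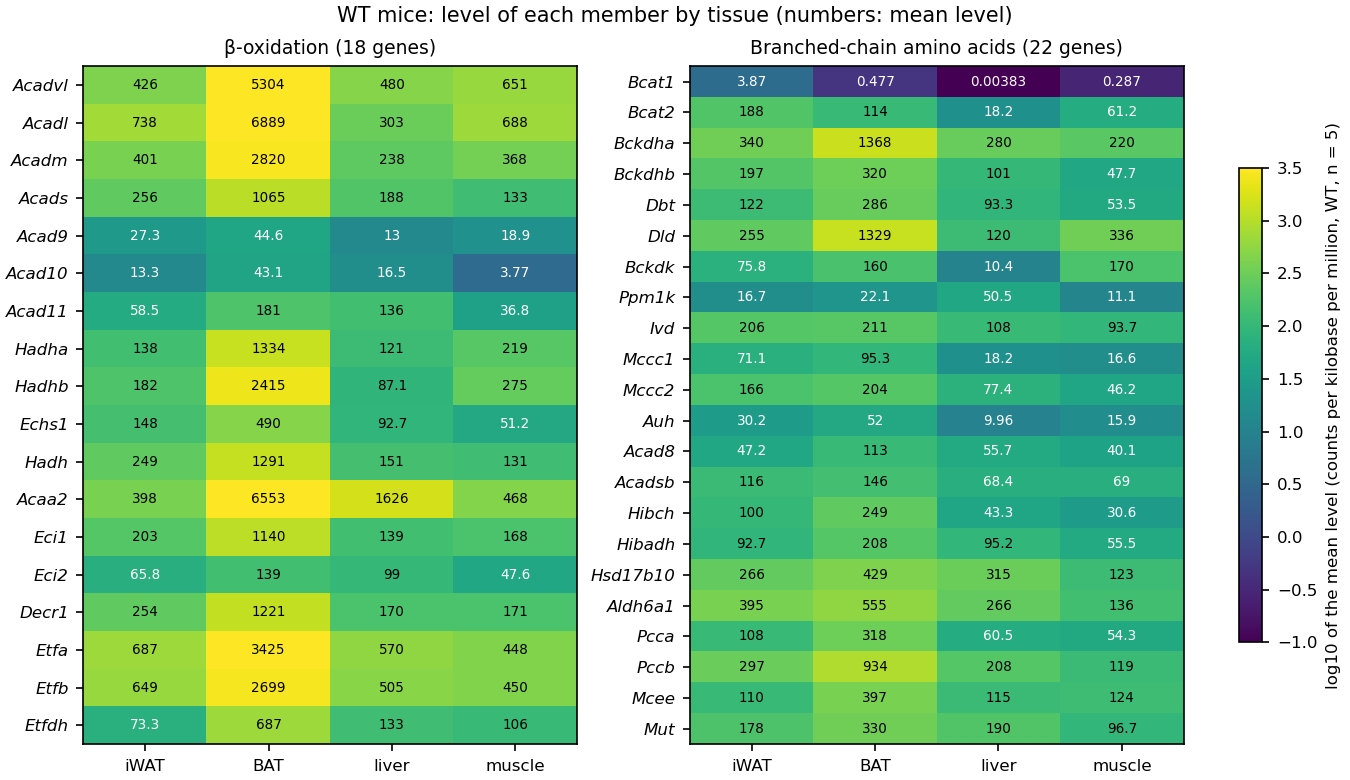
Mean level of each member in WT mice (TPM from counts per kilobase of exon, n = 5 per tissue), with 1 row per gene and 1 column per tissue. Colours show the log10 of TPM. In TPM BAT is highest for all 18 β-oxidation members (with TMM, Acad11 and Eci2 were lower in BAT than in liver), while Bcat1, Bcat2, Ppm1k and Bckdk are highest elsewhere.

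Between tissues (edgeR, 20 WT libraries), all 18 β-oxidation members were higher in BAT than in iWAT, with a median log2 difference of -2.82 for iWAT against BAT, where 28.0% of all genes tested were higher in BAT. Of the BCAA members, 20 were higher in BAT, 1 (Bcat1) was lower and Bcat2 was not called, with a median of -1.31. Against liver, 16 β-oxidation and 13 BCAA members were higher in BAT (background 34.8%), and against muscle 18 and 19 were (background 32.3%). Acad11 and Eci2 were the β-oxidation members lower in BAT than in liver, and with total counts in place of TMM no β-oxidation member was called lower there. The widest range of levels across tissues within the β-oxidation set was that of Hadhb, 27.7-fold from BAT (2415 ± 101) to liver (87.1 ± 4.51) with iWAT at 182 ± 22.3 and muscle at 275 ± 61.05, followed by Acadl at 22.8-fold, and the narrowest were Eci2 (2.92-fold) and Acad9 (3.43-fold). Within the BCAA set, Bckdk, the kinase that switches the pathway off, ranged 16.4-fold from muscle (170.5 ± 13.6) to liver (10.4 ± 1.02), with BAT at 159.7 ± 4.83 and iWAT at 75.8 ± 3.37, whereas Ivd (2.25-fold) and Acadsb (2.13-fold) varied least. Bcat1 ranged widest, with a level of 3.87 in iWAT and 2 counts over all 5 WT liver libraries, too few for a fold.

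In iWAT, the comparison of UCP1 KO with WT asks what loss of UCP1 does to these genes in a white fat depot, and UCP1 KO against dKO asks the same of FGF21 loss on the UCP1 KO background. The thiolase Acaa2, the very-long-chain dehydrogenase Acadvl and both subunits of the trifunctional protein rose 3.81-fold to 4.28-fold in UCP1 KO iWAT. Of the 18 β-oxidation members, 4 were higher and 0 lower in UCP1 KO than in WT, where 0.593% of all genes tested were called higher. All 18 had a positive log2 fold change (median 1.06, range 0.44 to 2.10, against a median of -0.032 over all genes tested), and 16 had an unadjusted p under 0.05 (14.7% of all genes tested).

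Hadha and Hadhb lie head to head on chromosome 5, and the stretch between their start sites is shown because both genes moved together here (GRCm38.p6, chr5:30154981-30155252, plus strand, RefSeq, 272 bases, 60.3% GC). No letters are in capitals because none of the motifs searched was found in it.
Between Hadha and Hadhb: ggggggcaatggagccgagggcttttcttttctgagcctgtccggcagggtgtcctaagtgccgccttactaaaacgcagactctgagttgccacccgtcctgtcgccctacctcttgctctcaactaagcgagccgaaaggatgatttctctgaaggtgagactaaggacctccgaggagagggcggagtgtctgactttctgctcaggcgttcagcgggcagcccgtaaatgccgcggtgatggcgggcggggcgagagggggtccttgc

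Hadhb had 314, 352, 309, 349 and 245 CPM in the WT libraries and 883, 575, 1403, 1598 and 2256 CPM in UCP1 KO (4.28-fold, 2.10 ± 0.39 (SE), adjusted p = 0.00716). In dKO it had 165, 375, 214, 427 and 518 CPM and in FGF21 KO 122 to 386 CPM. Every UCP1 KO library lay above every library of the WT, dKO and FGF21 KO groups, and replicate 2, the UCP1 KO library with a high lymph node score, was the lowest of its group. Hadha, the subunit with the hydratase and hydroxyacyl dehydrogenase activities, had 305, 334, 302, 349.6 and 275 CPM in WT and 844, 511, 1292, 1314 and 2004 CPM in UCP1 KO (3.81-fold, 1.93 ± 0.33 (SE), adjusted p = 0.00465). Its dKO libraries had 183, 342, 219, 386 and 459 CPM, again with no overlap with UCP1 KO. Acadvl, which starts the oxidation of long chains, had 279.7, 321, 299, 341 and 251 CPM in WT, 907, 485, 1286, 1356 and 2044 CPM in UCP1 KO and 150.01, 311, 206, 447 and 389 CPM in dKO. The change against WT was 4.07-fold, 2.03 ± 0.37 (SE), adjusted p = 0.00728. Acaa2, which releases acetyl-CoA in the last step, had 162, 182, 164, 170.1 and 113 CPM in WT, 417, 260.3, 687, 747 and 1022 CPM in UCP1 KO and 90.99, 177, 118, 213 and 203 CPM in dKO, a change against WT of 3.96-fold, 1.99 ± 0.36 (SE), adjusted p = 0.00657. For Acadvl and Acaa2 as well, the UCP1 KO libraries did not overlap with the WT or dKO libraries (edgeR for all adjusted p; exact two-sided permutation p = 0.00794 for each, the smallest that 5 against 5 allows).

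**Figure D2:**
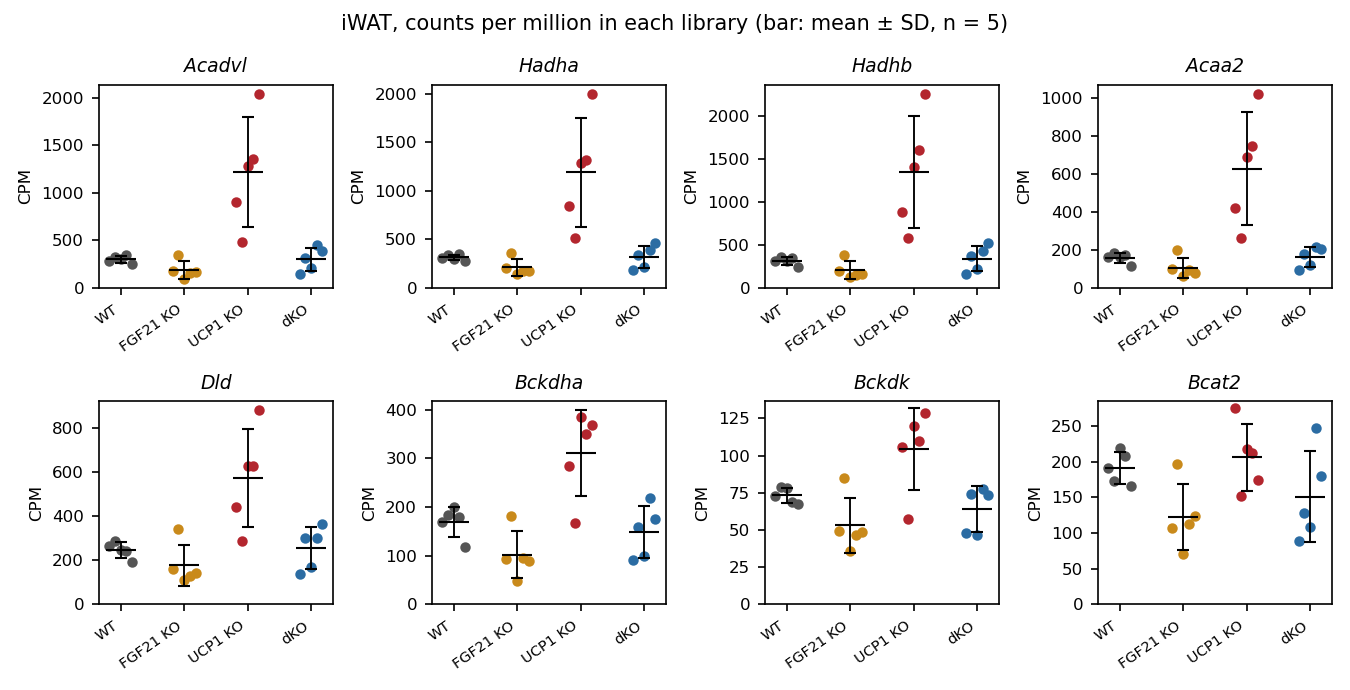
CPM of 8 members in each iWAT library by genotype; points are libraries and bars the group means ± SD (n = 5). In Acadvl, Hadha, Hadhb and Acaa2 all 5 UCP1 KO libraries lie above the WT and dKO libraries, while in Bcat2 the groups overlap.

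Next to these, Acadl (1.62 ± 0.37 (SE), adjusted p = 0.0271), Etfdh (1.62, adjusted p = 0.0201), Decr1, which handles double bonds (1.44, adjusted p = 0.0552), and Acad11 (0.99, adjusted p = 0.125) also had UCP1 KO libraries that lay apart from all WT libraries, but were not called by edgeR. With them, 8 of the 18 members had groups that did not overlap, against 3.83% of all genes tested. The smallest changes in this set were those of Acad9 (0.44), Acad10 (0.47) and Eci2 (0.50), none of them called.

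Against dKO, 3 of 18 β-oxidation members were higher in UCP1 KO and 0 lower (background 0.437%), namely Acadvl (2.02 ± 0.37 (SE), adjusted p = 0.00941), Acaa2 (1.97 ± 0.36 (SE), adjusted p = 0.00855) and Hadha (1.91 ± 0.33 (SE), adjusted p = 0.00677) by edgeR. Hadhb was 1.98 with an adjusted p of 0.0123 and was not called. All 18 were positive with a median of 1.16, 17 had an unadjusted p under 0.05 (14.2% of all genes tested), and 4 did not overlap between groups (background 2.09%). The UCP1 KO libraries are those compared with WT above. Against FGF21 KO, again with these UCP1 KO libraries, 15 of 18 β-oxidation members were higher (background 3.62%), and 4 of the 5 FGF21 KO libraries had a high lymph node score.

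Where FGF21 was absent, UCP1 loss (dKO against FGF21 KO) gave β-oxidation changes of 0.26 to 0.80 with 0 of 18 called by edgeR and 3 at an unadjusted p under 0.05 (8.62% of all genes tested). The difference between both effects of UCP1 loss, with and without FGF21, was tested as an interaction. By edgeR 0 β-oxidation and 0 BCAA members passed (4 and 0 at an unadjusted p under 0.05, as were 9.98% of all genes; smallest adjusted p = 0.349, Hadha), and by DESeq2 0 and 0 did, so a difference between both effects of UCP1 loss was not shown. No member was called between dKO and WT by edgeR, with β-oxidation changes of -0.31 to 0.20 and BCAA changes of -0.45 to 0.59 (0 and 1 members at an unadjusted p under 0.05, and 5.91% of all genes). FGF21 KO against WT gave 0 calls as well, with 3 and 7 at an unadjusted p under 0.05 and all 40 members on the negative side (medians -0.62 and -0.56; 17.4% of all genes tested had an unadjusted p under 0.05). Other markers moved with this: 4 of 5 FGF21 KO and 2 of 5 WT libraries had a high lymph node score. The 7 adipocyte genes summed to 6631 to 20271 CPM in FGF21 KO against 16469 to 26753 in WT, all 7 with a negative fold change and 0 called by edgeR (4 at an unadjusted p under 0.05). Their part in these values was not tested.

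The BCAA set gave no calls in the same iWAT libraries. Of 22 members, 0 were called by edgeR in UCP1 KO against WT and 4 had an unadjusted p under 0.05, close to the 14.7% of all genes, with 20 positive changes, a median of 0.40 and no member whose groups did not overlap. By DESeq2 1 of 22 members, Dld, was called, near the background of 3.49%. Dld, the dehydrogenase subunit that the pyruvate and oxoglutarate dehydrogenase complexes share, had 266, 286, 248, 241 and 192 CPM in WT and 443, 286, 628, 628 and 883 CPM in UCP1 KO (1.22 ± 0.34 (SE), adjusted p = 0.0622, edgeR). Bckdha, the catalytic subunit, had 169, 183, 199, 179 and 118 CPM in WT and 284, 167, 385, 349 and 369 CPM in UCP1 KO (0.87 ± 0.31 (SE), adjusted p = 0.16, edgeR). In both genes the groups overlapped through the lowest UCP1 KO library, replicate 2. The kinase Bckdk had 72.7, 78.7, 78.1, 69.1 and 67.5 CPM in WT and 106, 57.4, 120.1, 109.7 and 128 CPM in UCP1 KO (0.51 ± 0.23 (SE), adjusted p = 0.291, edgeR). The phosphatase Ppm1k had 18.9, 27.3, 23.8, 28.8 and 30.6 CPM in WT and 24.4, 31.6, 19.1, 24.7 and 21.6 CPM in UCP1 KO (-0.092 ± 0.20 (SE), adjusted p = 0.919, edgeR). Bcat2, the mitochondrial transaminase, had 190.3, 173, 219, 207 and 166 CPM in WT and 275, 151, 217, 212 and 175 CPM in UCP1 KO (0.11 ± 0.27 (SE), adjusted p = 0.927, edgeR). The groups of these genes overlapped, none was called, and the signs of Ppm1k and Bcat2 turned under some alternatives. By branch, the median change was 0.15 for the 4 leucine enzymes, 0.27 for the 6 valine and isoleucine enzymes and 0.60 for the 4 enzymes from propionyl-CoA on. Against dKO 0 of 22 were called by edgeR and 0 by DESeq2 (8 at an unadjusted p under 0.05, as were 14.2% of all genes, median 0.53), with Dld at 1.17 (adjusted p = 0.0765) and Bckdha at 1.06 (adjusted p = 0.0819). Some members were called against dKO with the lymph node covariate or with libraries of low lymph node score, as given in the closing section on processing.

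**Figure D3:**
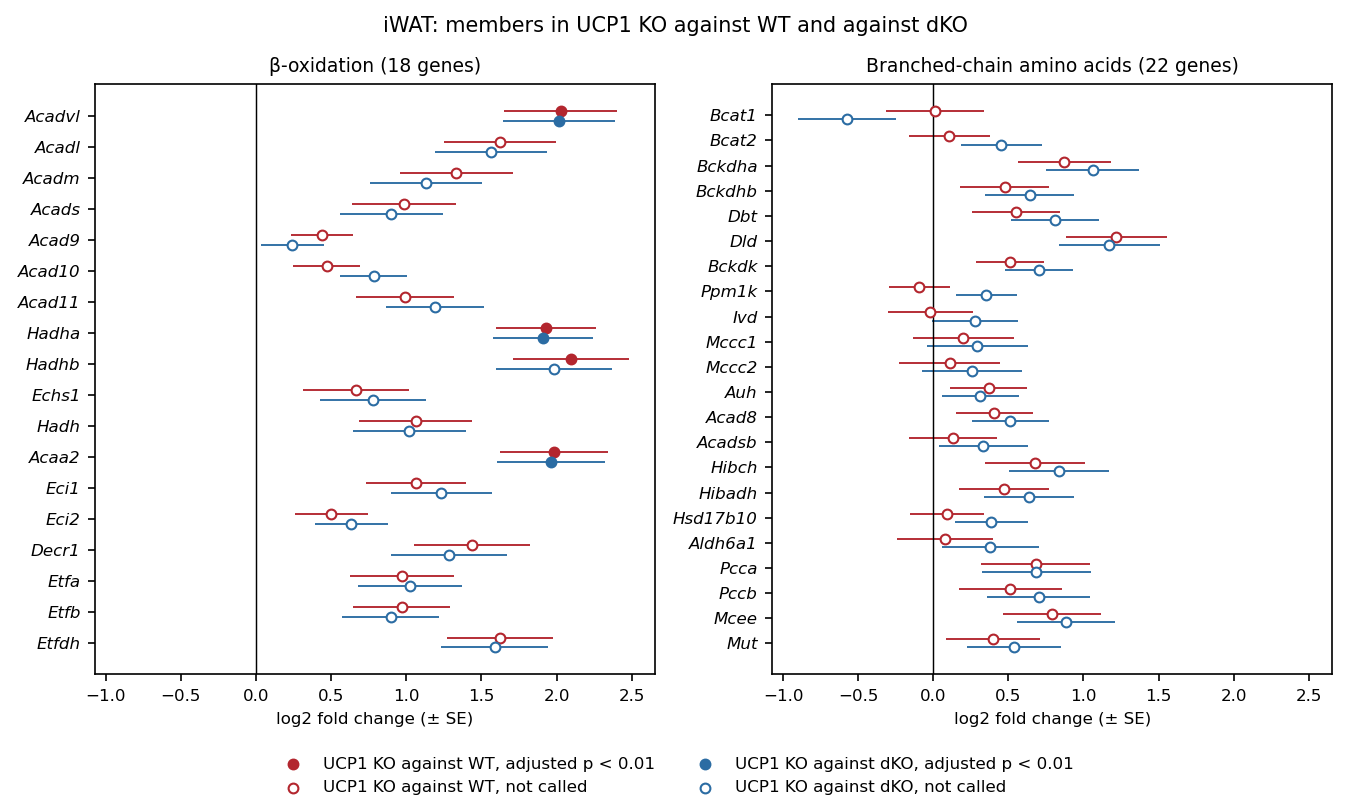
Log2 fold change ± SE of the 40 members in iWAT for UCP1 KO against WT and UCP1 KO against dKO, with β-oxidation and BCAA members apart. All 18 β-oxidation points lie above 0 in both comparisons, with medians of 1.06 and 1.16, and those of the 22 BCAA members have medians of 0.40 and 0.53, with Dld the highest at 1.22 and 1.17.

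Around the pathway, 2 of 13 genes of fatty acid entry, ketone body metabolism and BCAA transport were higher in UCP1 KO than in WT iWAT by edgeR and 0 lower (background 0.593% higher, as for the regulators; median 0.55). These were Cpt1b, the muscle and brown fat form of the carnitine palmitoyltransferase at the outer membrane (3.76 ± 0.56 (SE), adjusted p = 0.00213), and the carnitine carrier Slc25a20 (2.01 ± 0.34 (SE), adjusted p = 0.00447), whereas the other form, Cpt1a, was -0.033 (adjusted p = 0.96). Of 7 transcriptional regulators, 2 were higher, Ppara, a nuclear receptor that drives fatty acid oxidation genes (3.38 ± 0.56 (SE), adjusted p = 0.00382), and Esrra, an estrogen-related receptor of mitochondrial genes (0.92 ± 0.14 (SE), adjusted p = 0.00197). Of 8 mitochondrial genes outside both pathways (citrate synthase, subunits of the respiratory complexes and of ATP synthase, Vdac1 and Tomm20), 0 were called by edgeR, 8 had an unadjusted p under 0.05 (14.7% of all genes tested), and their median of 1.05 was close to that of the β-oxidation set.

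The number of calls in iWAT was sensitive to single libraries and to the libraries in the fit, while the log2 fold change of Hadhb against WT lay between 1.72 and 2.29 over all alternatives run. Left out in turn, the β-oxidation count for UCP1 KO against WT was 0 without WT replicates 1, 2, 3, 4 and 5 or UCP1 KO replicates 3, 4 and 5, and 1 without FGF21 KO replicate 1, and 2 without FGF21 KO replicate 5 or dKO replicate 2. The share of all genes called under each omission is not set beside these counts, so they do not show a change of the members alone. A fit of only the 10 UCP1 KO and WT libraries called 0 members of either set (and 1 gene in all), with Hadhb still at 2.10. With the 11 iWAT libraries of low lymph node score (3 WT, 4 UCP1 KO, 3 dKO and 1 FGF21 KO, which is assumed to vary like the others) 12 β-oxidation and 3 BCAA members were called (background 4.10%), and with the 15 of low skeletal muscle score (3, 4, 4 and 4) 0 of either were, with Hadhb at 2.16. Brown fat markers moved with the β-oxidation set: all 7 summed to 116 to 179 CPM in WT, 444 to 1947 in UCP1 KO, 62.4 to 210.3 in dKO and 37.5 to 139.6 in FGF21 KO. The 8 lymph node genes summed to 16.3 to 1181 CPM in WT, 9.48 to 1569 in UCP1 KO and 8.60 to 1756 in dKO, and the 10 skeletal muscle genes to 26.96 to 13933, 40.3 to 22844 and 40.5 to 1118. The part of cells with brown fat markers in the result was not tested.

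In BAT, UCP1 loss went with lower BCAA enzymes of the leucine, valine and isoleucine branches, in mice with and without FGF21. In UCP1 KO against WT, Ivd, the first enzyme of the leucine branch, fell to 0.527 of WT, and Hsd17b10, of the isoleucine branch, to 0.579. Of 22 BCAA members 10 were lower and 2 higher, where 11.4% of all genes tested were lower and 13.8% higher, and the median was -0.38. Of 18 β-oxidation members 5 were lower and 0 higher, with a median of -0.30. The groups of 10 BCAA and 2 β-oxidation members did not overlap, against 23.5% of all genes tested.

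These changes are relative to the median gene, and the direction of the weaker ones depends on the scaling. With total counts in place of TMM, the median log2 fold change of all genes moved from 0.0097 to 0.31, and 5235 genes were called higher and 455 lower. The β-oxidation set then had 2 members higher (Decr1 and Hadha) and 1 lower (Acaa2), and the BCAA set 3 higher (Bcat1, Bckdhb and Dbt) and 4 lower (Ivd, Hsd17b10, Pccb and Acad8). Acaa2 (-0.23), Ivd (-0.64) and Hsd17b10 (-0.50) were thus lower under both scalings. Gene symbols without a gene model of known length, which are outside both sets, took 22.5 to 24.2% of the counts in WT BAT, 22.5 to 24.4% in FGF21 KO, 10.9 to 17.6% in UCP1 KO and 9.53 to 20.99% in dKO. Summed over the 18 members, raw CPM on total counts for β-oxidation was 24100.0 to 25366 in WT libraries against 21273 to 28684 in UCP1 KO, and it was 6018 to 6273 against 5166 to 6461 over the 22 BCAA members, with overlapping groups in both.

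The stretch before the start site of Ivd and that of Pccb are shown because both genes were lower with UCP1 loss under each scaling and in both comparisons without shared libraries (250 bases each, GRCm38.p6, RefSeq; Ivd chr2:118861744-118861993, plus strand; Pccb chr9:101034885-101035134, minus strand). Capitals in Pccb mark GCGCATGCG, the letters of an NRF1 element, 35 to 27 bases before the start; no searched motif is in the Ivd stretch. NRF1 is a transcription factor of genes of the respiratory chain.
Ivd: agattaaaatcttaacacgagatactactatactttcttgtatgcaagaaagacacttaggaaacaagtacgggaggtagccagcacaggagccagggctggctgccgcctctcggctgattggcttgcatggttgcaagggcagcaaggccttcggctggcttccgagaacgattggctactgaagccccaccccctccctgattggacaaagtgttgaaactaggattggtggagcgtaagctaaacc
Pccb: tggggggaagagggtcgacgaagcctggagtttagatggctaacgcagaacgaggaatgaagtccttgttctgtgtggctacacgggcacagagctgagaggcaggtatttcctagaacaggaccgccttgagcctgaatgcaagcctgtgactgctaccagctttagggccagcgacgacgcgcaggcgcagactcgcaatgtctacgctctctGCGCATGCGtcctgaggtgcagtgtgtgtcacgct

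Ivd had 261, 261, 284, 291 and 271 CPM in WT, 240.4, 250.5, 230.3, 257 and 271 in FGF21 KO, 178, 155, 139, 138 and 111 in UCP1 KO and 140.5, 129, 149, 148 and 139 in dKO. Every library without UCP1 lay below every library with it. The change was -0.92 ± 0.092 (SE), adjusted p = 1.18e-06 for UCP1 KO against WT and -0.82 ± 0.092 (SE), adjusted p = 6.45e-06 for dKO against FGF21 KO (edgeR). Hsd17b10, which oxidises a hydroxyacyl-CoA of the isoleucine branch and is also part of mitochondrial RNase P, had 123, 122, 129.8, 135 and 148 CPM in WT and 96.7, 69.1, 76.2, 75.7 and 63.02 CPM in UCP1 KO (-0.79 ± 0.11 (SE), adjusted p = 3.24e-05, edgeR), with no overlap. Aldh6a1, the methylmalonate semialdehyde dehydrogenase of the valine branch, had 738, 699.9, 762, 821 and 762 CPM in WT and 653, 415, 477, 514 and 366 CPM in UCP1 KO (-0.64 ± 0.13 (SE), adjusted p = 0.00104, edgeR). Its groups did not overlap either, but under total counts it was -0.36 and not called. The other called falls were Pccb (-0.61), Acadsb (-0.60), Mccc2 (-0.56), Acad8 (-0.55), Pcca (-0.45), Mut (-0.43) and Mccc1 (-0.40). All called falls together cover 3 of 4 leucine, 4 of 6 valine and isoleucine and 3 of 4 propionyl-CoA enzymes, where 11.4% of all genes tested were lower. Under total counts only Ivd, Hsd17b10, Acad8 and Pccb stayed called lower.

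Of the 2 transaminases and 4 dehydrogenase subunits at the entry of the BCAA pathway, 2 were called higher in BAT of UCP1 KO against WT and 0 lower. These numbers are too small to be read against the shares of all genes (13.8% and 11.4%). Bcat2 was lower in dKO than in WT and FGF21 KO. Bcat1, the cytosolic transaminase and a low gene here, had 1.37, 0.843, 0.909, 1.11 and 1.01 CPM in WT and 1.45, 3.72, 2.46, 1.83 and 1.92 CPM in UCP1 KO (2.16-fold, 1.11 ± 0.27 (SE), adjusted p = 0.0029, edgeR), with every UCP1 KO library above every WT library. Bckdhb was higher as well (0.45 ± 0.11 (SE), adjusted p = 0.00325, edgeR), while Bckdha (-0.15), Dbt (0.15), Dld (-0.20) and Bcat2 (-0.23) were not called. Of the regulators, Bckdk was -0.13 (adjusted p = 0.304), with 139.7, 142, 142, 132 and 140.03 CPM in WT and 128, 126, 152, 121 and 109.8 CPM in UCP1 KO. Ppm1k had 25.8, 25.002, 30.2, 32.5 and 43.1 CPM in WT, 31.1, 16.5, 16.2, 23.2 and 20.4 in UCP1 KO and 14.02, 14.8, 13.1, 21.8 and 12.2 in dKO. It was not called in UCP1 KO against WT (-0.55 ± 0.21 (SE), adjusted p = 0.0437, edgeR) or in dKO against FGF21 KO (-0.77, adjusted p = 0.0114, edgeR). It was called lower in dKO against WT (-1.05 ± 0.21 (SE), adjusted p = 0.00105, edgeR), which differ in both alleles.

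**Figure D4:**
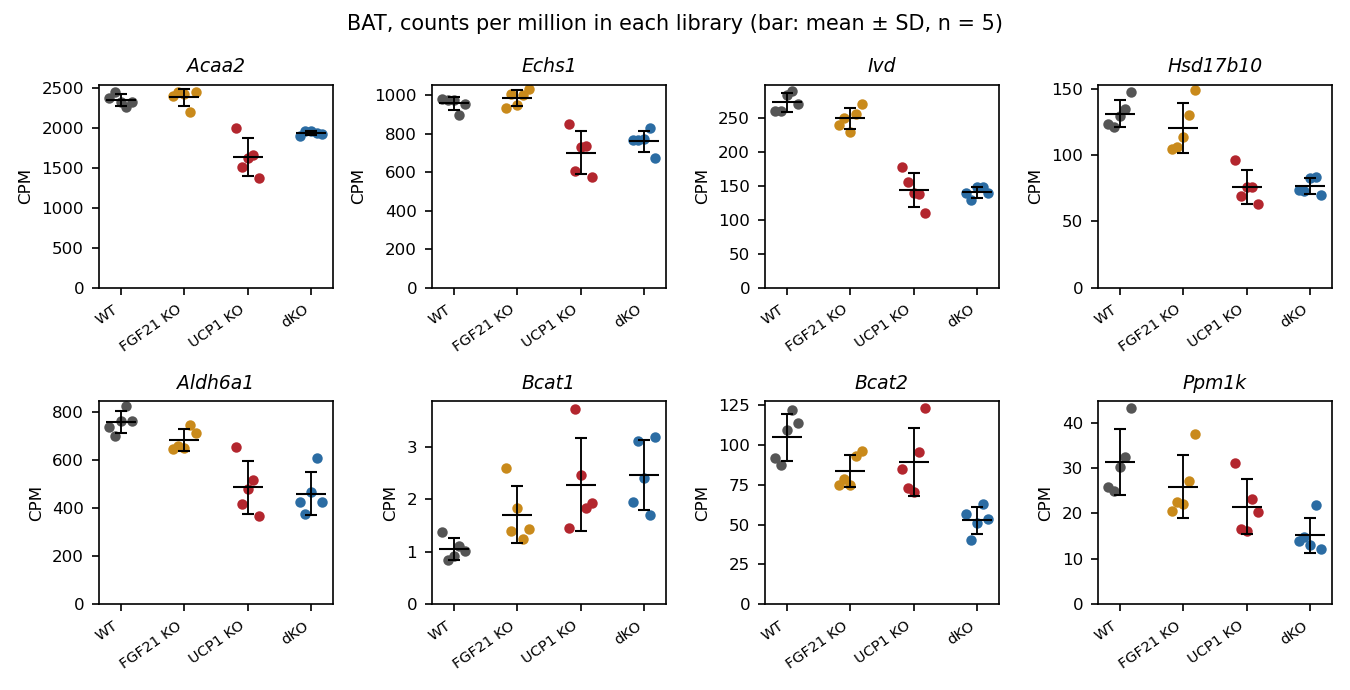
CPM of 8 members in each BAT library by genotype; points are libraries and bars the group means ± SD (n = 5). The UCP1 KO and dKO libraries of Ivd lie below all WT and FGF21 KO libraries, and Bcat2 is lowest in dKO.

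Among the β-oxidation members in BAT, Acaa2, Echs1, Hadh, Hadhb and Acad10 were called lower in UCP1 KO than in WT, and the other 13 members, Acadm and Acads among them, were not called. Acaa2 had 2373, 2452, 2319, 2255 and 2322 CPM in WT and 2002, 1508, 1619.8, 1663 and 1377 CPM in UCP1 KO (-0.52 ± 0.081 (SE), adjusted p = 8.28e-05, edgeR). Echs1, the hydratase, had 981, 976, 978, 899 and 955 CPM in WT and 852, 606, 731, 738 and 578 CPM in UCP1 KO (-0.45 ± 0.088 (SE), adjusted p = 0.000638, edgeR), and neither gene had overlapping groups. Hadh, the hydroxyacyl-CoA dehydrogenase, had 1545, 1563, 1568, 1449 and 1455 CPM in WT and 1459, 962, 1154, 1124 and 912 CPM in UCP1 KO (-0.43 ± 0.096 (SE), adjusted p = 0.00164, edgeR). Acad10, a family member of low level, had 55.6, 58.5, 60.6, 66.8 and 66.9 CPM in WT and 57.5, 31.2, 35.9, 50.98 and 45.1 CPM in UCP1 KO (-0.48 ± 0.14 (SE), adjusted p = 0.0093, edgeR). In Hadh and Acad10 the groups overlapped, as they did in Hadhb (-0.31 ± 0.084 (SE), adjusted p = 0.00752, edgeR). Hadha (-0.040), Etfb (-0.0031), Acad11 (0.0083) and Decr1 (0.13) were near the median gene. The call of Acad10 was lost in 20 of 28 alternatives, with an adjusted p of up to 0.3 by edgeR or DESeq2. Under total counts Echs1 (-0.16), Hadh (-0.15), Acad10 (-0.19) and Hadhb (-0.018) were not called.

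dKO against FGF21 KO, whose libraries all differ from those of UCP1 KO against WT, gave 10 of 22 BCAA members lower and 0 higher (background 6.80% lower), with a median of -0.40. It gave 1 of 18 β-oxidation members lower, which is about the background share, with a median of -0.15. This member was Echs1 (-0.37 ± 0.088 (SE), adjusted p = 0.00493, edgeR), whose call was lost in 9 of 28 alternatives. Of the 10 lower BCAA members of UCP1 KO against WT, 9 were among these 10 (Ivd, Hsd17b10, Aldh6a1, Pccb, Acadsb, Acad8, Pcca, Mut and Mccc1), the exception being Mccc2 (-0.47, adjusted p = 0.0157), and Bcat2 was added. The groups of 12 BCAA and 6 β-oxidation members did not overlap (background 18.6%). Under total counts the median of all genes moved from 0.0037 to 0.23, with 2722 genes higher and 274 lower, and the BCAA set had 1 member higher (Bckdhb) and 3 lower (Ivd, Hsd17b10 and Pccb). The β-oxidation set had 2 higher (Decr1 and Etfb) and 0 lower. Among the comparisons that reuse these libraries, dKO against WT had 2 β-oxidation and 11 BCAA members lower (background 10.0%), and UCP1 KO against FGF21 KO 7 and 10 (background 10.3%). The 2 of 18 β-oxidation members of dKO against WT are at about the background. FGF21 KO against WT had 0 calls by edgeR in both sets, with 0 and 2 members at an unadjusted p under 0.05, where 8.55% of all genes were.

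**Figure D5:**
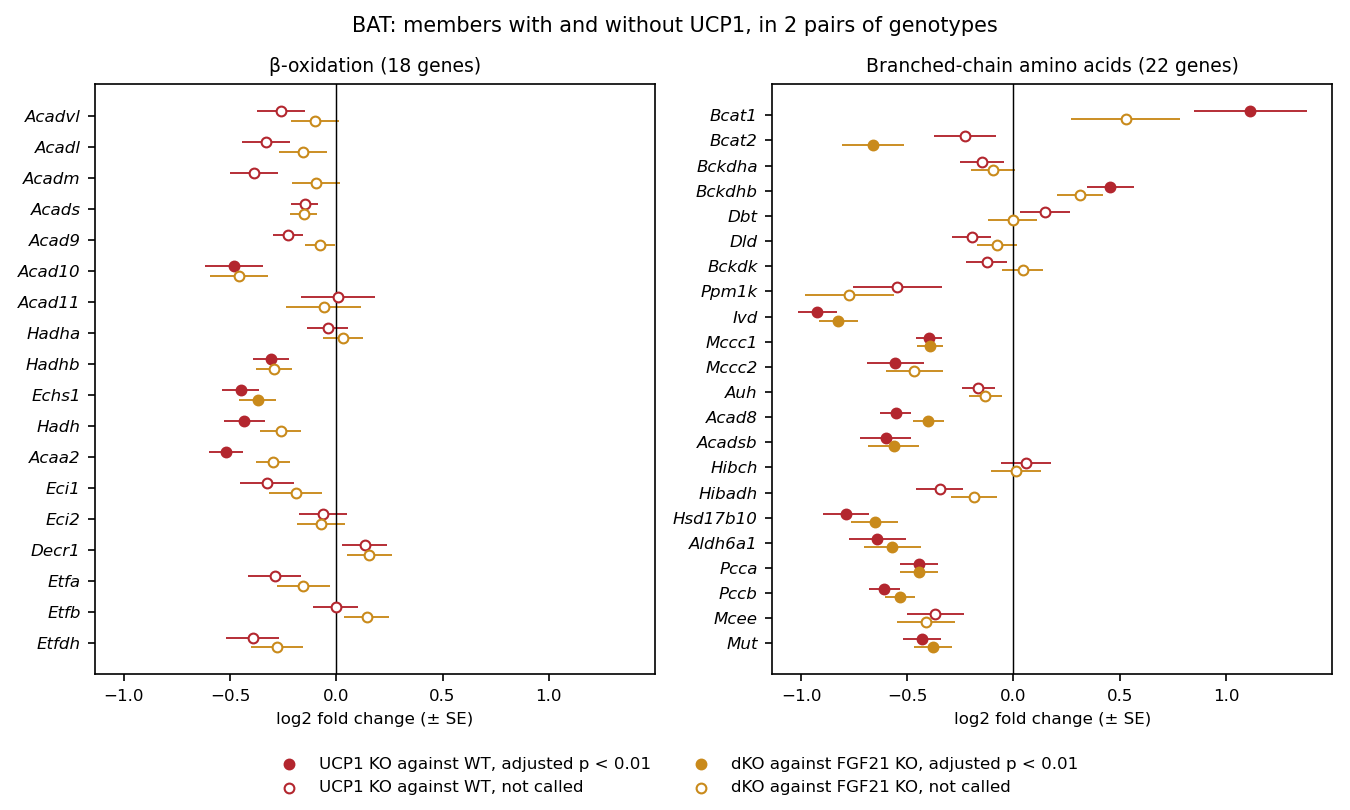
Log2 fold change ± SE of the 40 members in BAT for UCP1 KO against WT and dKO against FGF21 KO, relative to the median gene (TMM). The points of Ivd (-0.92 and -0.82) and Hsd17b10 (-0.79 and -0.65) are the lowest BCAA members in UCP1 KO against WT, and Bcat1 is the highest in both.

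Between UCP1 KO and dKO BAT, 0 members were called by edgeR (4 β-oxidation and 5 BCAA members at an unadjusted p under 0.05, and 12.9% of all genes; by DESeq2 0 and 1 were called, background 0.356%). The smallest adjusted p was that of Bcat2 (0.76 ± 0.15 (SE), adjusted p = 0.0344), whose groups did not overlap. Bcat2 had 91.6, 87.4, 109, 122 and 114 CPM in WT, 74.99, 78.8, 75.2, 92.9 and 96.2 in FGF21 KO, 84.8, 72.9, 70.4, 95.7 and 124 in UCP1 KO and 56.4, 40.1, 51.1, 63.3 and 53.5 in dKO. Every dKO library was below every other library, and dKO was lower than WT (-0.99 ± 0.15 (SE), adjusted p = 7.64e-05, edgeR) and than FGF21 KO (-0.66 ± 0.15 (SE), adjusted p = 0.0032, edgeR). Of all members Bcat2 lies nearest to Fgf21, on chromosome 7 from 45570153 to 45589711 (GRCm38), 0.0242 Mb from it, while no member is on the chromosome of Ucp1. FGF21 KO alone had Bcat2 at -0.33 against WT in BAT (adjusted p = 0.542), -0.65 in iWAT (0.262), -0.0098 in liver (0.997) and -0.18 in muscle (0.34), none of them called by edgeR. Whether the position near the Fgf21 allele has a part in these values was not tested.

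Of the 13 genes of entry and exit, 3 were higher and 3 lower in UCP1 KO than in WT BAT by edgeR, where 13.8% of all genes tested were higher and 11.4% lower. Slc7a5, the light chain of the transporter that carries BCAA into cells, had 11.8 ± 6.06 CPM (mean ± SD, n = 5) in UCP1 KO against 0.362 ± 0.0952 in WT (5.003 ± 0.36 (SE), adjusted p = 2.98e-08, edgeR). Its heavy chain Slc3a2 (1.41 ± 0.24 (SE), adjusted p = 0.000207) and Cpt1a (1.57 ± 0.25 (SE), adjusted p = 0.000117) were also higher. The lower genes included Acat1, the thiolase that ends the isoleucine branch and ketone body breakdown (-0.74 ± 0.095 (SE), adjusted p = 1.30e-05) and Cpt1b (-0.41, adjusted p = 0.00533). Of 7 regulators 1 was lower, Ppargc1b, a coactivator of mitochondrial genes (-0.90 ± 0.21 (SE), adjusted p = 0.00267), and of 8 other mitochondrial genes 1 was higher and 2 lower (median -0.16). For the regulators, 1 of 7 is near the share of all genes that were lower. Markers of other cells moved with UCP1 loss in BAT: all 10 skeletal muscle genes summed to 29.4 to 138 CPM in WT, 31.5 to 473 in FGF21 KO, 81.1 to 11924 in UCP1 KO and 119 to 5922 in dKO. The adipocyte score of 7 genes was 9.02 to 9.81 in WT, 9.02 to 9.45 in FGF21 KO, 8.63 to 9.42 in UCP1 KO and 8.58 to 9.004 in dKO. The brown fat score of 7 genes was 6.80 to 7.44, 7.05 to 7.35, 7.15 to 7.95 and 7.49 to 7.90 in the same order. The score of 8 macrophage genes was 2.90 to 3.21 in WT, 2.74 to 3.43 in FGF21 KO, 3.49 to 4.94 in UCP1 KO and 3.20 to 4.10 in dKO. With only the BAT libraries of low muscle score (5 WT, 5 FGF21 KO, 3 UCP1 KO, 2 dKO), 2 β-oxidation and 10 BCAA members were called in UCP1 KO against WT, Ivd at -0.94 and Bcat1 at 0.72 and no longer called. In that fit 23.3% of all genes tested were called in either direction, so the β-oxidation count (2 of 18) was not above the background. In dKO against FGF21 KO neither the adipocyte nor the brown fat scores overlapped between groups, the former lower and the latter higher in dKO. As summed CPM the same adipocyte genes overlapped and went the other way. They summed to 10856 to 13854 in dKO (mean 12253) against 10003 to 11287 in FGF21 KO (mean 10826), so the direction depends on the measure. The brown fat genes summed to 3784 to 4617 against 3096 to 3853, also with overlap. The part of macrophages, adipocytes and brown fat markers was not tested.

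The change with UCP1 loss differed between iWAT and BAT for 9 of 18 β-oxidation and 1 of 22 BCAA members (edgeR, 40 libraries of both tissues, difference of UCP1 KO minus WT, background 3.99% higher in iWAT). The BCAA count is at about that background. The β-oxidation members were Acaa2 (difference 2.48 ± 0.36 SE), Hadhb (2.38), Acadvl (2.26), Etfdh (1.99), Hadha (1.95), Acadl (1.93), Acadm (1.70), Hadh (1.47) and Eci1 (1.37), and the BCAA member was Dld (1.39 ± 0.34 SE). The medians were 1.32 over the β-oxidation set, 0.71 over the BCAA set and -0.049 over all genes. With total counts those of both sets were 0.87 and 0.28. Among the 8 other mitochondrial genes 5 differed in the same direction. Bcat1 was the member with the most negative difference (-1.12, adjusted p = 0.0727), and Bckdhb had a difference of 0.0012 ± 0.30 (SE). With only iWAT libraries of low lymph node score the counts were 17 and 14 (background 8.44%), and with only libraries of low muscle score they were 4 and 0 (background 2.28%). They ranged from 7 to 15 and from 0 to 7 when each library was left out in turn, with backgrounds of 2.85% to 6.12%. The 15 and 7 were reached without iWAT UCP1 KO replicate 2, where the background was 6.12%. The mice of both tissues are not linked in the labels, so libraries were treated as independent.

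In liver, no member was called in the test over all 4 genotypes (edgeR), where 0.340% of all genes tested were. At an unadjusted p under 0.05, 0 of 18 β-oxidation and 2 of 21 BCAA members were found (11.6% of all genes tested), and by DESeq2 0 and 0 passed. The smallest adjusted p were 0.467 for Acad11, 0.503 for Eci2, 0.364 for Hsd17b10 and 0.419 for Dbt. For UCP1 KO against WT the changes ran from -0.17 to 0.027 in the β-oxidation set and from -0.33 to 0.40 in the BCAA set. Acaa2, the leading member in liver, had 763, 899, 819, 953 and 799.8 CPM in WT and 701, 756, 812, 785 and 926 CPM in UCP1 KO, with overlapping groups.

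In muscle, no member was called in the test over all 4 genotypes either (edgeR; background 0.0860%). At an unadjusted p under 0.05 there were 11 of 22 BCAA and 0 of 18 β-oxidation members, where 16.3% of all genes tested were, and by DESeq2 3 and 0 were called (background 2.41%). Bcat2 had 64.1, 64.8, 61.8, 56.8 and 62.1 CPM in WT, 59.2, 66.5, 47.9, 51.5 and 47.6 in FGF21 KO, 50.5, 53.1, 55.5, 51.4 and 50.8 in UCP1 KO and 48.3, 39.7, 50.2, 50.3 and 44.2 in dKO (adjusted p over the genotypes = 0.0501; dKO against WT -0.41 ± 0.082 (SE), adjusted p = 0.036, edgeR). All dKO libraries lay below all WT libraries. Aldh6a1 had 208, 218, 203, 197 and 196 CPM in WT and 176, 159.6, 174, 163 and 178 CPM in UCP1 KO (-0.26 ± 0.055 (SE), adjusted p = 0.0932, edgeR), without overlap and not called. In the β-oxidation set, Echs1 (0.482) and Acad10 (0.622) had the smallest adjusted p over the genotypes.

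Paired genes were compared as log2 ratios of counts within each library, which do not depend on the scaling. These were 5 pairs of partners in a complex, the kinase and phosphatase Bckdk and Ppm1k, and the transaminases Bcat1 and Bcat2. Over 54 ratios (7 pairs, 4 tissues, UCP1 KO against WT and dKO against FGF21 KO, without Bcat1 in liver), none passed an adjusted p of 0.05 in exact two-sided permutation tests, where the smallest possible p is 0.00794 and the smallest adjusted p was 0.0714. In iWAT, where Hadha and Hadhb both rose, their log2 ratio was -0.16 ± 0.081 (SD, n = 5) in UCP1 KO and 0.0047 ± 0.096 in WT, with overlapping groups (exact permutation p = 0.0159, adjusted 0.0989). In BAT it differed by 0.27 in UCP1 KO against WT and by 0.32 in dKO against FGF21 KO, and the libraries did not overlap in either (exact permutation p = 0.00794, adjusted 0.0714). Bckdha to Bckdhb, the partners of the decarboxylase, differed between groups by 0.38 in iWAT and by -0.59 in BAT for UCP1 KO against WT, each without overlap and with the same p. For UCP1 KO against WT the differences of this ratio thus had opposite signs in iWAT and BAT. For dKO against FGF21 KO they were 0.030 in iWAT and -0.41 in BAT, with overlapping groups in each (exact permutation p = 0.563 and 0.0238, adjusted 0.721 and 0.0989).

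Promoter windows of 250 bases before and 50 after the start site were found in RefSeq (GRCm38.p6) for 35 of 40 members, in 40 windows, and not used for Acad9, Acaa2, Decr1, Dbt and Mut. On either strand, the NRF1 element GCGCATGCG was in 4 of 40 member windows (10%), those of Acadm, Acad10, Etfdh and Pccb, and in 1.75% of all 32851 windows. The 250 bases before the start had a median GC content of 58% in member windows and 52.4% in all windows. Neither the estrogen-related receptor element TCAAGGTCA (0.423% of all windows) nor the nuclear receptor repeat AGGTCANAGGTCA (0.0396%) was in a member window. Only these exact letters were searched. At such shares no match in 40 windows was the likely outcome, so it does not show that members lack these elements. Acadm, with 1 match of the NRF1 letters in the reverse orientation (in capitals), is shown as a β-oxidation member with such a match (GRCm38.p6, chr3:153944644-153944893, minus strand, 250 bases).
Acadm: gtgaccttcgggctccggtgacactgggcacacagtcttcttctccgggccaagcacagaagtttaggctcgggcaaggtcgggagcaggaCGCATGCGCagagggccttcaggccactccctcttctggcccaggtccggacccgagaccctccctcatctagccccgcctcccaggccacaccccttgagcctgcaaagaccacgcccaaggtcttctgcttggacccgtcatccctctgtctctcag
A match is a description of the letters and not a binding site.

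Of the 40 members, 14 overlap another counted gene in the annotation (on the other strand, for example, Acadvl with Dvl2, Echs1 with Paox, Bcat2 with 0610005C13Rik, Bckdha with B3gnt8 and Aldh6a1 with Bbof1), 3 of them on the same strand, where the neighbours are microRNA genes inside Hadhb, Decr1 and Etfb. The strand setting of the counting is not given in the sources used here, so counts of overlapping genes are uncertain.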

How the data were processed

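RNA was taken from iWAT, BAT, liver and muscle, poly(A) selected and sequenced as strand-specific paired-end libraries. Reads were aligned by the authors (STAR, mm10, GRCm38) and counted on UCSC known genes with HTSeq-count, and the authors deposited raw counts per gene symbol, 1 library per file. Of 32765 rows, 1 names no gene and was left out (at most 3.42e-05% of counts). Groups came from the tissue and genotype labels, and replicate numbers only name the libraries of a group in the order of deposition.

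Per tissue, genes were kept whose highest count exceeded 15, whose counts summed to over 75 and which were at 0 in at most 10 of the libraries. They were scaled with TMM and fitted by genotype with edgeR 4.0.16 (limma 3.58.1, R 4.3.3). This is the filter of the study's methods, whose tool, DESeq2 (1.42.0), was an alternative. Standard errors are those implied by the fold change and its F statistic. Log2 CPM has a prior count of 2. No 2 libraries of a tissue had identical counts (760 pairs).

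The members, the gene lists and the tests were chosen with earlier results of these data known. Values per library are given for up to 4 called members with the largest change per set and comparison (those with the smallest adjusted p where none was called), for Bckdk and Ppm1k, and for the member nearest to Fgf21, and levels by tissue for the members of widest and narrowest range across WT tissues. Acadl, Etfdh, Decr1, Acad11 and further members given by their fold change, and Acaa2 in liver, were chosen after their values were seen. Alternatives were an adjusted p under 0.05, RLE factors, no filter, DESeq2, only the groups compared, lymph node or muscle scores as covariates, low lymph node libraries, other gene lengths and leaving out each library. Added after seeing the data were low muscle libraries, total counts as library size and the test of iWAT against BAT. 1 gene of entry and exit is counted but not reported here by name. The code was tested on simulated data.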

Additional observations from a re-analysis of the deposited data

Results flagged for a closer look

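Of 112 groups of 5 libraries checked, 7 had a library farther from the others than Dixon's test allows at 95%, and chance alone gives about 1 in 20. In iWAT, FGF21 KO replicate 2 was such a library for Hadhb (386 CPM against 122 CPM in the lowest of its group), Dld (342 CPM) and Bckdk (84.7 CPM), each the highest of its group. It is the FGF21 KO iWAT library without a high lymph node score. WT replicate 5 was low for Acaa2 in iWAT at 113 CPM. In BAT, Acaa2 was low in FGF21 KO replicate 4 at 2199 CPM, Bckdk was low in WT replicate 4 at 132 CPM, and Ppm1k was high in dKO replicate 4 at 21.8 CPM.

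The change with UCP1 loss differed between iWAT and BAT, by a test of the difference itself, for 9 of 18 β-oxidation and 1 of 22 BCAA members, where 3.99% of all genes tested were higher in iWAT, so the BCAA count is at about the background.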

How the results depend on the processing

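No paired analysis was possible because the labels number no replicates (the numbers used here only name libraries, in the order of deposition within a group) and link no libraries of 1 mouse. Counts of called members are given below where an alternative moved them by more than 1.5 times or turned a sign, with the share of all genes called in either direction under that alternative in parentheses, and the cause was not tested. In iWAT, β-oxidation members called in UCP1 KO against WT (4) became 8 (3.49%) with DESeq2, 0 with only the groups compared, 8 (4.92%) with the lymph node covariate, 12 (4.10%) with low lymph node libraries and 0 with low muscle libraries, and those against dKO (3) became 6 (2.32%) at an adjusted p under 0.05, 6 (1.35%) with total counts, 1 (0.230%) without the filter, and 8 (3.13%), 0, 15 (4.24%), 5 (1.07%) and 0 under the same 5 alternatives. BCAA members (0 and 0) became 1 against WT with DESeq2, 1 and 6 with the lymph node covariate (of 22, the first 2 of these are at about the shares above), and 3 and 2 with low lymph node libraries. In BAT, UCP1 KO against WT (5 β-oxidation members) gave 10 (40.7%) at an adjusted p under 0.05, 3 (36.2%) with total counts, 3 (about the share of all genes) without the filter, 1 (17.1%) with only the groups compared, 2 (19.9%) with the muscle covariate and 2 (23.3%) with low muscle libraries, and 12 BCAA members became 7 with total counts, where 36.2% of all genes were called (2.89% lower; 4 of the 7 members were lower). Of 18, the β-oxidation counts with only the groups compared, the muscle covariate, low muscle libraries and total counts lay below the share of all genes. dKO against FGF21 KO (1 β-oxidation member) gave 5 (28.0%) at an adjusted p under 0.05, 2 (19.0%) with total counts, 4 (19.5%) with DESeq2, 4 (12.8%) with only the groups compared and 0 (7.33%) with the muscle covariate, and 10 BCAA members became 4 (3 lower) with total counts, where 19.0% of all genes were called (1.74% lower), and 5 (7.33%) with the muscle covariate. UCP1 KO against dKO (0 BCAA members) gave 1 (0.216%) at an adjusted p under 0.05, 1 (0.356%) with DESeq2 and 2 (1.29%) with low muscle libraries. In muscle, DESeq2 called 3 BCAA members (2.41%) over the genotypes. The difference between iWAT and BAT (9 and 1) gave 15 and 8 (13.7%) at an adjusted p under 0.05, 2 BCAA (1 higher and 1 lower; 16.5%) with total counts, 2 BCAA (9.06%) with DESeq2, 17 and 14 (12.6%) with low lymph node libraries and 4 and 0 (4.07%) with low muscle libraries.

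Leaving out each library in turn moved the β-oxidation counts in iWAT to 0 to 6 against WT and 0 to 6 against dKO, in BAT to 3 to 11 (UCP1 KO against WT), 0 to 5 (dKO against FGF21 KO) and 0 to 1 (UCP1 KO against dKO), and for the difference between tissues to 7 to 15 and, for BCAA, 0 to 7. For the difference between tissues, the share of all genes higher in iWAT moved too, from 2.85% to 6.12%. For the other comparisons the share under each omission is not given, so their counts do not show a change of the members alone. For iWAT against dKO the count was 0 without WT replicates 1, 2 and 3, FGF21 KO replicates 1 and 5, UCP1 KO replicates 3, 4 and 5 or dKO replicates 1, 2, 3 and 5, 1 without WT replicates 4 and 5, FGF21 KO replicate 4 or dKO replicate 4, 5 without FGF21 KO replicate 2, 6 without UCP1 KO replicate 2. For BAT it was 3 without WT replicates 2, 3, 4 and 5, FGF21 KO replicates 1, 2, 3, 4 and 5, UCP1 KO replicates 2, 3 and 5 or dKO replicate 1, 11 without UCP1 KO replicate 1 in UCP1 KO against WT, 0 without FGF21 KO replicates 2, 4 and 5 or dKO replicates 1, 2 and 5, 2 without dKO replicate 4, 3 without UCP1 KO replicates 2 and 5, 5 without UCP1 KO replicate 1 in dKO against FGF21 KO, and 1 without UCP1 KO replicate 1 in UCP1 KO against dKO. BCAA counts in BAT stayed within 1.5 times.

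Signs turned for Bcat2 in iWAT against WT (-0.061 with total counts, -0.085 with the lymph node covariate, -0.039 with low muscle libraries, -0.018 without UCP1 KO replicate 1 and up to 0.20 without replicate 2), for Ppm1k there (0.027 and 0.063 with the lymph node covariate and low muscle libraries), and for Bckdk and Bcat2 in BAT UCP1 KO against WT with total counts (0.16 and 0.093). The sign also turned for Bckdk in BAT dKO against FGF21 KO without dKO replicate 1 (-0.010) or 2 (-0.0021). There it was 0.12 without replicate 4 and at most 0.27 over all alternatives. The 39 named fold changes were each run under 28 or 30 alternatives, 1126 runs in all. Of these runs, 933 kept the direction and side of the threshold, 150 lost the call, 33 gained it and 10 turned. Genes that were not called and stayed so count as kept. The called β-oxidation members in iWAT lost the call in 10 to 15 of 30 runs against WT and in 15 to 20 of 30 against dKO. With coding length in place of exon length, the 5 highest β-oxidation members kept 4 in WT BAT, 3 in iWAT, 3 in liver and 2 in muscle, and the 5 highest BCAA members kept 4, 2, 3 and 3. The leading β-oxidation member changed in iWAT (Echs1), BAT (Hadhb) and muscle (Hadhb).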
